A study of Mus musculus with 4 samples.

Results

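Mt1 and Mt2, the metallothionein genes found in most mouse tissues, were followed through the stromal vascular fraction of inguinal white fat, the cells left when a fat pad is digested and its adipocytes removed. The members were the 2 genes with these symbols among 31053 genes in the matrices. They were selected on their own summed UMIs by cell class and library, so every level and ratio of Mt1 and Mt2 below is a description and carries no test. The tissue came from 8 pooled iAdFASNKO mice and from 7 pooled control mice of the strain C57BL/6. The name iAdFASNKO is not spelled out in the labels and is known to stand for an inducible deletion of fatty acid synthase in adipocytes. The labels give no age, sex, inducing agent, Cre driver or strain background for the iAdFASNKO mice. Such a deletion acts in adipocytes, which the digestion removes. Magnetic beads split each pool into cells that carried lineage markers (Lin+) and the remaining stromal cells (Lin-). The 4 resulting libraries were iAdFASNKO Lin+, control Lin+, iAdFASNKO Lin- and control Lin-. With 1 library a group, no test between genotypes was possible. All intervals are 95% intervals of counting error alone and do not cover the spread between mice, pools or libraries.

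Metallothioneins are small proteins, rich in cysteine, that bind zinc and copper through their thiol groups. Zinc-loaded MTF1 binds metal response elements in their promoters, and glucocorticoids, inflammatory cytokines and oxidants also induce them. In fat, both stromal cells and adipocytes are known to express Mt1 and Mt2.

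Both genes lie on the plus strand of chromosome 8 (build mm10, GENCODE annotation M21), with 3 exons each. Mt2 (ENSMUSG00000031762) spans chr8:94172664-94173568 and Mt1 (ENSMUSG00000031765) spans chr8:94179082-94180327, with 5513 bases between them. Mt4 (ENSMUSG00000031757, chr8:94137197-94139031) and Mt3 (ENSMUSG00000031760, chr8:94152607-94154146) precede them on the same strand. The coding sequences of the members are printed because they show the protein's defining feature, with every cysteine codon in capitals, 5′ to 3′ on the gene's strand.
Mt1: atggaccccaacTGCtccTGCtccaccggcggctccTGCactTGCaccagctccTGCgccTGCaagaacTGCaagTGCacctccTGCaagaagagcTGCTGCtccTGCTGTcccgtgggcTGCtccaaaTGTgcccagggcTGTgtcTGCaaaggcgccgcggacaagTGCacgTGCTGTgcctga
Mt2: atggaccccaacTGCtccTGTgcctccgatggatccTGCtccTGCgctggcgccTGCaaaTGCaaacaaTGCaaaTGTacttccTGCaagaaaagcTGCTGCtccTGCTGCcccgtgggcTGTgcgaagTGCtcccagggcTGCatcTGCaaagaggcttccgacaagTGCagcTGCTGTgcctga
Each coding sequence has 186 bases and 61 codons before the stop. In both, 20 of these codons are cysteine codons, and all 20 stand at the same positions. The sequences are identical at 148 of 186 bases (79.6%), without gaps, and at 34 of 62 codons with the stop included. The libraries read the 3′ ends of transcripts, and how reads shared by near-identical stretches were treated is not given in the sources used here.

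The promoter windows, 250 bases before to 50 bases after the RefSeq start (build GRCm38.p6), were searched on both strands for the core of the metal response element, spelled TGCACNC or TGCGCNC. The matches are shown because both windows hold this core, though at unlike positions from the RefSeq start. That start is an annotation and was not checked against a measured start of transcription. Each match is in capitals with 10 bases on either side, on the gene's strand.
Mt1 site 1: ggtcccgctgTGCACACtggcgctcca
Mt1 site 2: cagggagctcTGCACTCcgcccgaaaa
Mt1 site 3: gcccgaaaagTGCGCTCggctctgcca
Mt2 site 1: gcatcgcctcTGCACCCggcccctcgg
Mt2 site 2: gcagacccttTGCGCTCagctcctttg
Mt2 site 3: gggggagggcGTGTGCAggctctgtcc
Mt2 site 4: aattcgggtcGTGCGCAggcccagggg
The Mt1 matches lie at chr8:94179066-94179072, chr8:94179091-94179097 and chr8:94179109-94179115. The Mt2 matches lie at chr8:94172395-94172401, chr8:94172490-94172496, chr8:94172568-94172574 and chr8:94172622-94172628, the last 2 of them on the opposite strand. Mt1 sites 2 and 3 and Mt2 site 4 lie after the RefSeq start. Of 32851 promoter windows of this length, 25.7% held at least 1 match, 1.97% held 3 or more and 0.517% held 4 or more. A match describes the letters in the window and was not tested as a binding site.

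The matrices held 18336 barcodes, of which 14701 passed the cell filter, between 2888 and 4425 in a library, beside an estimated 6000 cells per library in the labels. The median UMI count (unique molecular identifiers, each standing for 1 captured transcript) of retained cells was 3302 in iAdFASNKO Lin+, 5359 in control Lin+, 4150 in iAdFASNKO Lin- and 9116 in control Lin-, so the iAdFASNKO libraries were the shallower in both fractions. Cell classes were taken from marker genes and are called "X-like", and 14188 cells were put in a class. Pairs of libraries shared between 109 and 170 barcode sequences, and 1.99% to 6.13% of a library's retained cells had such a barcode. The share was larger in Lin+ endothelial-like cells, where 49 of 66 iAdFASNKO and 13 of 34 control cells had no shared barcode. Haemoglobin transcripts lay in every Lin+ class. Fasn stood at 21.7 and 24.9 CPM (counts per 1000000 UMIs) in iAdFASNKO Lin+ and Lin- cells, against 36.3 and 38.0 CPM in control Lin+ and Lin- cells. The adipocyte gene Adipoq had 14 UMIs in iAdFASNKO Lin-, 1 in control Lin- and 0 in both Lin+ libraries, so Fasn in these cells does not check a deletion in adipocytes.

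Progenitor-like cells, the fibroblast-like cells marked by Pdgfra, Col1a1 and Dcn that include the precursors of adipocytes, held most of the Mt1 transcripts. Retained cells carried 9370 Mt1 UMIs in iAdFASNKO Lin+, 20587 in control Lin+, 21183 in iAdFASNKO Lin- and 42510 in control Lin-. The progenitor-like cells held 82.9%, 95.4%, 84.0% and 94.4% of them in that order. Mt2 had 3903, 7531, 4514 and 6795 UMIs in the same libraries, and the progenitor-like share was 88.2%, 96.7%, 84.4% and 92.6%.

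Per UMI, Schwann-like cells, the glia of peripheral nerves marked by Sox10 and Cdh19 among others, had the highest Mt1 level of the classes with at least 20 cells in each library. They stood at 3385 CPM in iAdFASNKO Lin+ (2938 to 3882, 27 cells), 1454 CPM in control Lin+ (1210 to 1734, 21 cells), 3011 CPM in iAdFASNKO Lin- (2840 to 3189, 207 cells) and 2436 CPM in control Lin- (2244 to 2640, 83 cells). In control Lin+ the interval overlapped that of the next class, the progenitor-like cells at 1310 CPM. When classes were taken from clusters instead of markers, the control Lin- order turned round, with a log2 ratio of Schwann-like over progenitor-like cells of -0.22 in place of 0.46. The Schwann-like clusters then took in the whole of cluster 17, which held 15.7% of the marker-gated Schwann-like cells of control Lin-. Cluster 17 also holds perineurial-like cells and 22 progenitor-like cells of control Lin-, the latter at 318 CPM of Mt1. The part of these cells in the turn was not tested.

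Mast-like cells stood at 1077 CPM of Mt1 in iAdFASNKO Lin+ (829 to 1375, 23 cells), above the progenitor-like cells of that library. Perineurial-like cells stood at 1241 CPM in iAdFASNKO Lin- (1039 to 1470, 31 cells), near the progenitor-like cells there, with 51.9% of these UMIs in 1 cell. Epithelial-like cells stood at 903 CPM in control Lin- (31 cells), with 25.8% of these UMIs in 1 cell. Macrophage-like cells had 806 CPM in iAdFASNKO Lin+ and 508 CPM in control Lin+. Dendritic-like cells had 441 and 405 CPM in the same order, and 50.5% and 32.6% of their Mt1 UMIs came from 1 cell in each. Mural-like cells, the pericytes and smooth muscle cells of vessel walls, stood at 329 CPM in iAdFASNKO Lin- and 290 CPM in control Lin-.

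Lymphocytes and lymphatic endothelial-like cells lay low in the order, and in the control libraries endothelial-like cells did too. B cell-like cells had 15.7 CPM of Mt1 in iAdFASNKO Lin+ and 34.8 CPM in control Lin+. T cell-like cells had 13.02 CPM in iAdFASNKO Lin+ and 38.6 CPM in control Lin+. NK cell-like cells had 0 Mt1 UMIs in both iAdFASNKO libraries, which allows up to 28.5 CPM in Lin+ and 58.7 CPM in Lin-, and 1 UMI in each control library. Type 2 innate lymphoid (ILC2-like) cells had 2 Mt1 UMIs in 58 iAdFASNKO Lin- cells and 20 in 53 control Lin- cells, where 6.61% of genes were lower by the rule given below for ratios. Lymphatic endothelial-like cells had 5 Mt1 UMIs in 68 iAdFASNKO Lin- cells and 14 in 36 control Lin- cells.

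**Figure D1:**
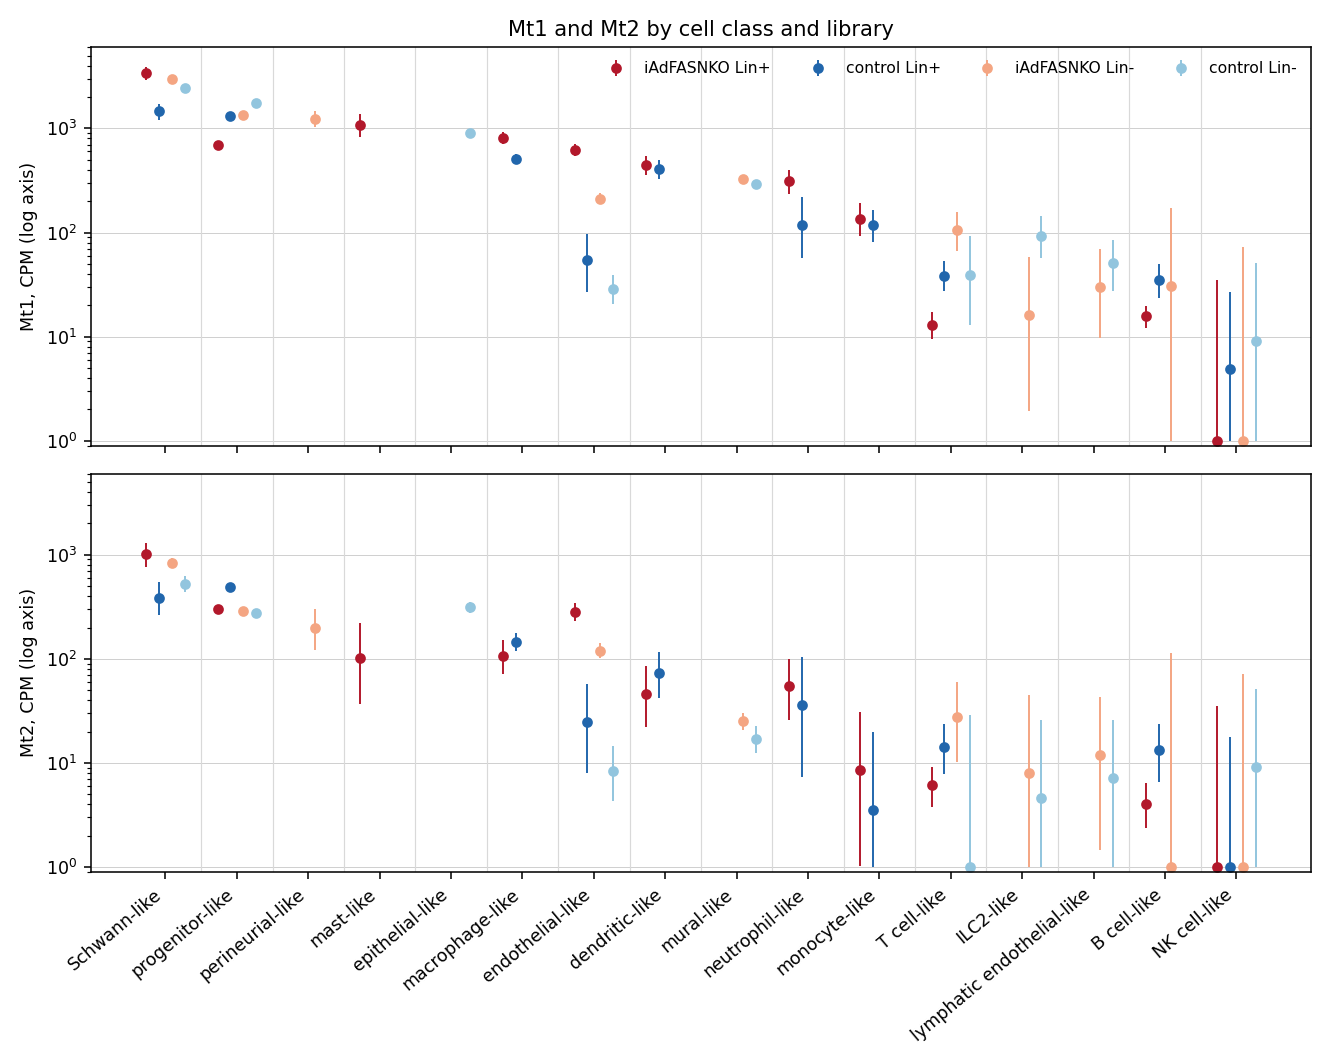
Mt1 (top) and Mt2 (bottom) in CPM, on log axes, for each marker-gated class with at least 20 cells in a library. Points are sums over the cells of 1 library with exact 95% Poisson intervals, and a level under 1 is drawn at 1. Schwann-like cells stand highest for Mt1 in all 4 libraries, and NK cell-like cells stand lowest.

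Mt2 followed a like order. Schwann-like cells had 1007 CPM in iAdFASNKO Lin+, 387 CPM in control Lin+, 828 CPM in iAdFASNKO Lin- and 522 CPM in control Lin-. Progenitor-like cells had 304, 486, 288 and 278 CPM in the same libraries. They led in control Lin+, where the intervals of these 2 classes overlapped. Over 23 sums of 1 class in 1 library with at least 50 cells, the log2 levels of Mt1 and Mt2 had a Pearson r of 0.94, a description over points that share libraries and depth.

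The brain metallothionein Mt3, best known from neurons and glia, had 35 of 38 UMIs in Schwann-like cells in iAdFASNKO Lin+, 35 of 38 in control Lin+, 388 of 419 in iAdFASNKO Lin- and 149 of 159 in control Lin-. In these cells it stood at 578 CPM in iAdFASNKO Lin+, 411 CPM in control Lin+, 1010 CPM in iAdFASNKO Lin- (912 to 1115) and 612 CPM in control Lin- (518 to 719). In progenitor-like cells it had 7 UMIs in iAdFASNKO Lin- and 0 in the other 3 libraries. Mt4, known from stratified epithelium, had between 1 and 40 UMIs in a library, and at most 2 in a class with at least 20 cells.

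In progenitor-like cells of the Lin+ fraction, both members were lower in the iAdFASNKO library. Mt1 stood at 685 CPM in iAdFASNKO cells (670 to 701, 1748 cells) and at 1310 CPM in control cells (1292 to 1329, 1770 cells), a ratio of 0.523 (0.509 to 0.537). Mt2 stood at 304 CPM in iAdFASNKO cells and 486 CPM in control cells, a ratio of 0.626 (0.601 to 0.652). A ratio was counted when it was at least 1.5, or at most 1/1.5, with an interval that left out 1, among genes with at least 20 UMIs over both libraries. By this rule 3.97% of 12862 genes were lower and 10.5% higher in these cells. Both members were among the lower genes, a count that the choice of members used.

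In the Lin- fraction neither member passed the ratio. Mt1 stood at 1344 CPM in iAdFASNKO cells (1324 to 1364, 2338 cells) and 1771 CPM in control cells (1754 to 1788, 2244 cells), a ratio of 0.759 (0.746 to 0.772) that did not reach 1/1.5. Mt2 stood at 288 CPM in iAdFASNKO cells and 278 CPM in control cells, a ratio of 1.04 (0.995 to 1.08). Here 5.74% of 13007 genes were lower and 9.47% higher, and neither member was among them.

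Mt1 also parted from Mt2 between the fractions. In progenitor-like cells of iAdFASNKO mice, Mt1 in Lin+ was 0.510 of its Lin- level (0.497 to 0.524), while Mt2 was 1.06 of it (1.01 to 1.11). In control mice the Lin+ over Lin- ratio was 0.740 for Mt1 (0.727 to 0.753) and 1.75 for Mt2 (1.69 to 1.81). The fractions differ in the make-up of their progenitor-like cells, described next, and the ratios by subset are given there.

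**Figure D2:**
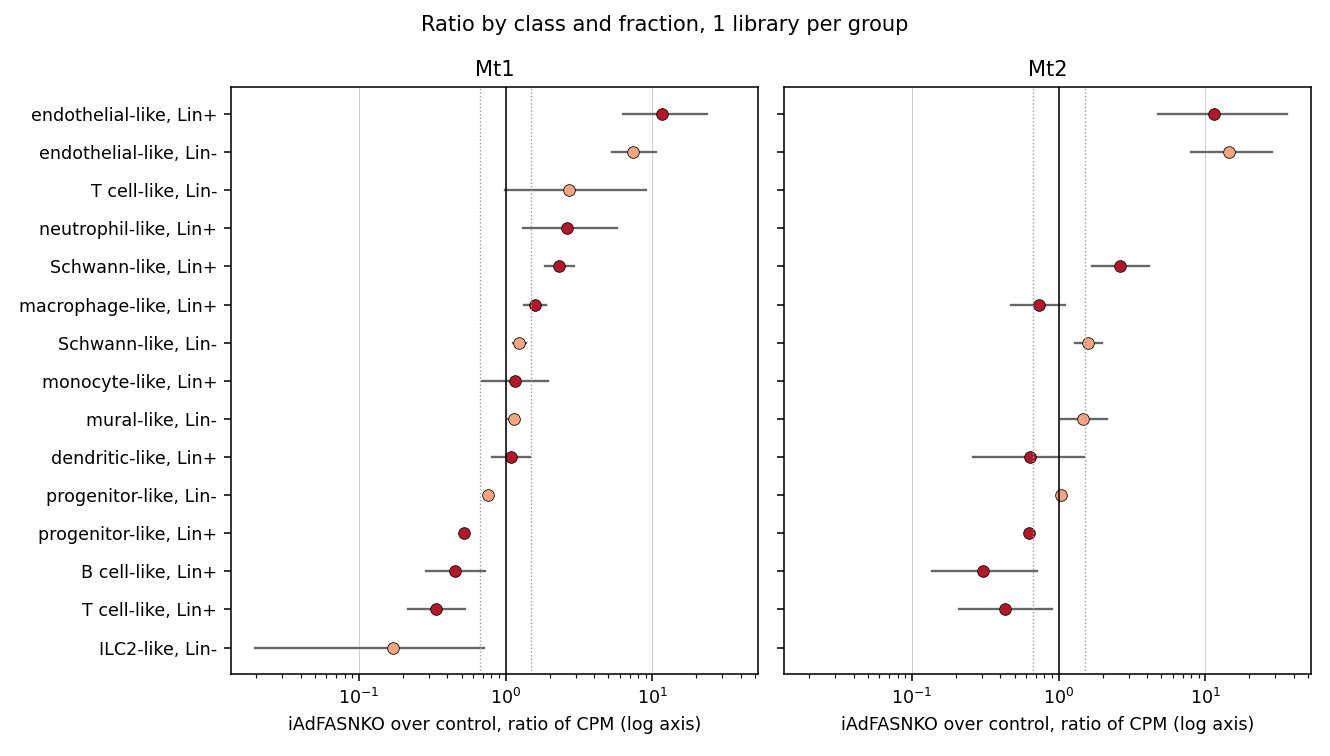
Ratio of CPM, iAdFASNKO over control, for Mt1 (left) and Mt2 (right) on log axes, by class, with dark points for Lin+ and light points for Lin-. Bars are exact 95% intervals of counting error with 1 library per group, and dotted lines mark 1.5 and 1/1.5. Endothelial-like cells lie farthest to the right in both fractions, while progenitor-like cells lie at 0.523 and 0.759 for Mt1.

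Progenitor-like cells were divided by marker genes into interstitial progenitor-like cells (Pi16, Dpp4), committed preadipocyte-like cells (Icam1, Pparg, Fabp4) and CD142 stromal-like cells (F3, Clec11a). Interstitial progenitor-like cells had 555 CPM of Mt1 in iAdFASNKO Lin+ and 832 CPM in control Lin+ (ratio 0.667), and 597 CPM in iAdFASNKO Lin- and 1267 CPM in control Lin- (ratio 0.471). In the control Lin- library, 29.3% of the Mt1 UMIs of its 57 such cells came from 1 cell, and the ratio without the highest cell of each library was 0.619. Committed preadipocyte-like cells had 954 CPM in iAdFASNKO Lin+ and 1784 CPM in control Lin+ (ratio 0.535), and 1453 CPM in iAdFASNKO Lin- and 1834 CPM in control Lin- (ratio 0.792). CD142 stromal-like cells had 1005 CPM in iAdFASNKO Lin+ and 1644 CPM in control Lin+ (ratio 0.611), and 1360 CPM in iAdFASNKO Lin- and 1454 CPM in control Lin- (ratio 0.936). The Mt1 interval lay below 1 in each subset and fraction, and the ratio reached 1/1.5 in 3 of these 6 comparisons.

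Mt2 in the subsets stood at ratios of 0.671, 0.520 and 0.694 in Lin+, in the order interstitial, committed and CD142. In Lin- the ratios were 0.548, 1.06 and 1.38. The CD142 stromal-like cells of Lin- had 403 CPM of Mt2 in iAdFASNKO (340 cells) and 292 CPM in control (283 cells), and neither member passed the ratio of 1.5 or 1/1.5 in this subset. Without the highest cell of each library the Mt2 ratio there was 1.24. Between the fractions of control mice, the Lin+ over Lin- ratio of Mt1 was 0.657, 0.973 and 1.13 in the same order of subsets. The first of these was 0.859 without the highest cells. For Mt2 the control ratios were 1.41, 1.88 and 1.96. In iAdFASNKO mice they were 0.930, 0.657 and 0.739 for Mt1 and 1.73, 0.923 and 0.985 for Mt2.

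Unsupervised clusters, made without Mt1 and Mt2, divided the progenitor-like cells more finely. The cluster that held most of them was number 7 in iAdFASNKO Lin- (29.1%) and number 5 in control Lin- (34.8%), so the libraries differed in make-up. Of 9 clusters with at least 10 such cells in each Lin+ library, Mt1 was below a ratio of 1 in 7, with an interval wholly below 1 in 4 and wholly above 1 in none. Of 9 clusters in Lin-, Mt1 was below 1 in 7, with an interval below 1 in 6 and above 1 in 2. Mt2 was more divided, below 1 in 5 of 9 clusters in each fraction. Its interval lay below 1 in 4 and above 1 in 2 in Lin+. In Lin- it lay below 1 in 2 and above 1 in 3.

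Cluster 2, led by Arc, Cxcl1, Ccl7 and Ptx3, immediate-early and inflammatory genes, had the highest Mt1. It stood at 1677 CPM in iAdFASNKO Lin+ and 2807 CPM in control Lin+ (ratio 0.597), and at 2812 CPM in iAdFASNKO Lin- and 3059 CPM in control Lin- (ratio 0.919, 0.897 to 0.943). Mt2 in this cluster was lower in iAdFASNKO Lin+, at 407 CPM against 786 CPM in control Lin+. It was higher in iAdFASNKO Lin-, at 603 CPM against 478 CPM in control Lin- (ratio 1.26, 1.19 to 1.33).

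The 2 exceptions for Mt1 in Lin- were clusters 5 and 7, each the largest in 1 of the libraries. In cluster 5, led by Cxcl14 and Smoc2, Mt1 stood at 1174 CPM in iAdFASNKO Lin- (168 cells) and 754 CPM in control Lin- (781 cells), a ratio of 1.56 (1.46 to 1.66). In cluster 7, led by Akr1cl, Car3 and Cdh11, it stood at 645 CPM in iAdFASNKO Lin- (681 cells) and 436 CPM in control Lin- (193 cells), a ratio of 1.48 (1.35 to 1.62). Mt2 had ratios of 1.82 (1.497 to 2.19) and 1.57 (1.24 to 2.01) in the same clusters. In Lin+, Mt2 was also higher in clusters 5 and 7, at ratios of 1.93 (1.04 to 3.49) and 2.82 (1.25 to 6.52). These rested on 19 and 34 UMIs in cluster 5 and on 16 and 12 UMIs in cluster 7, iAdFASNKO first. Besides cluster 2, clusters 0, 4, 8, 9 and 10 ran the other way for Mt1 in Lin-, with ratios of 0.451, 0.594, 0.642, 0.640 and 0.695. Cluster 17 had a ratio of 0.672 with an interval that held 1 (0.385 to 1.15).

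With the same mix of clusters in both genotypes, the Mt1 ratio of progenitor-like cells was 0.655 in Lin+ and 0.924 in Lin-, and the Mt2 ratio was 0.678 and 1.17. In Lin+ both members kept their direction, and Mt1 stayed past 1/1.5 while Mt2 no longer reached it. In Lin- the Mt1 ratio came near 1.

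**Figure D3:**
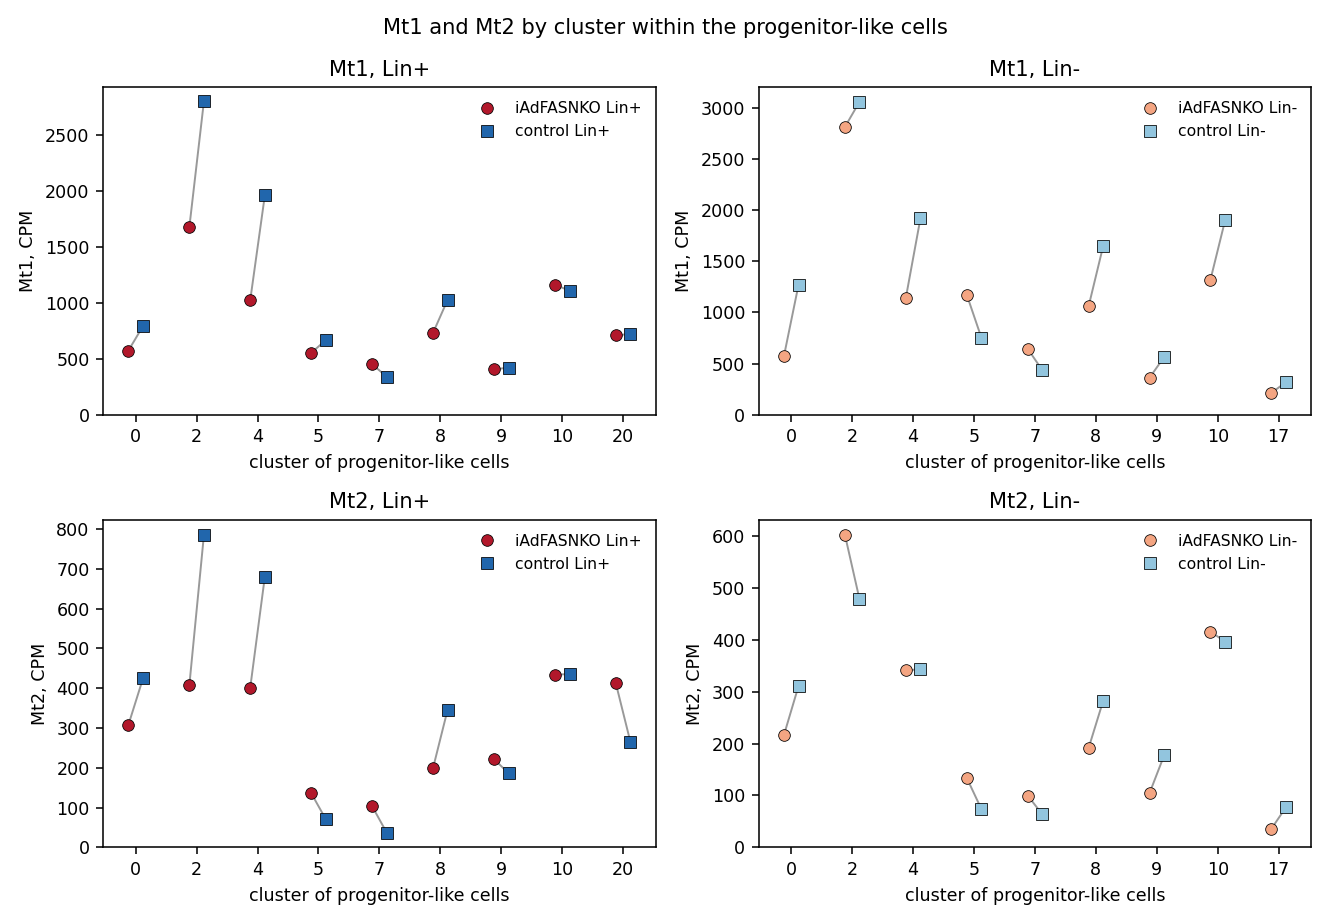
Mt1 (top) and Mt2 (bottom) in CPM for each cluster with at least 10 progenitor-like cells in both libraries, in Lin+ (left) and Lin- (right). Circles are iAdFASNKO and squares are control, joined within a cluster, each a sum over cells of 1 library. In Lin+ the circles of clusters 0, 2, 4 and 8 lie below their squares for both genes. In Lin- those of clusters 5 and 7 lie above for both genes, and those of clusters 2 and 10 for Mt2 alone.

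Mt1 was found in most progenitor-like cells, unevenly. The 10% of cells with the most Mt1 held 52.5% of its UMIs in iAdFASNKO Lin+, 55.8% in control Lin+, 60.3% in iAdFASNKO Lin- and 52.6% in control Lin-. The highest cell held 141 Mt1 UMIs in iAdFASNKO Lin+, 196 in control Lin+, 313 in iAdFASNKO Lin- and 302 in control Lin-, at most 1.81% of its library's Mt1 UMIs in these cells. At least 1 Mt1 UMI was found in 71.9% of iAdFASNKO Lin+ cells, 84.6% of control Lin+ cells, 75.8% of iAdFASNKO Lin- cells and 87.5% of control Lin- cells. With every cell thinned to 1000 UMIs the shares were 36.8%, 47.8%, 47.2% and 52.9%. Between 93 and 219 cells of a library were too shallow for the thinning and were left out. B cell-like cells, at the low end of the order, had such thinned shares of 1.5% in iAdFASNKO Lin+ and 3.55% in control Lin+. Their median depth was 2438 and 2235 UMIs, against 5699 and 8230 UMIs in the progenitor-like cells of the same libraries.

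Mt2 had thinned shares of 18.2% in iAdFASNKO Lin+, 26.8% in control Lin+, 14.9% in iAdFASNKO Lin- and 16.6% in control Lin-. The members occurred together in these cells. Of thinned cells with Mt1, 28.3%, 39.5%, 23.5% and 25.5% also had Mt2 in the same libraries, against 12.3%, 15.3%, 7.17% and 6.71% of cells without Mt1. Pearson's r of the thinned counts lay between 0.39 and 0.45 over 1529 to 2195 cells of a library, which share that library and are not replicates.

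Genes of metal handling were counted by the same rule in progenitor-like cells. Among all genes, 3.97% were lower and 10.5% higher in Lin+, and 5.74% were lower and 9.47% higher in Lin-. Mtf1, the zinc-sensing activator of metallothionein genes, stood at 16.5 CPM in iAdFASNKO Lin+ and 21.3 CPM in control Lin+ (ratio 0.773), and at 15.2 CPM in iAdFASNKO Lin- and 18.3 CPM in control Lin- (ratio 0.834). Slc30a1, a zinc exporter that MTF1 also induces, had ratios of 1.02 (0.764 to 1.37) and 1.06 (0.798 to 1.39) in Lin+ and Lin-. The zinc importers Slc39a10 and Slc39a14 had ratios of 1.06 and 1.10 in Lin+ and 1.15 and 1.12 in Lin-. Of 10 importers measured, 1 was higher in Lin+ and none passed in Lin-. Of 6 exporters, none passed in Lin+ and 1 was lower in Lin-. In the copper list, 1 of 10 genes was lower in each fraction, both times Steap4, a metalloreductase, at 143 CPM in iAdFASNKO Lin+ and 218 CPM in control Lin+, and at 239 CPM in iAdFASNKO Lin- and 368 CPM in control Lin-.

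Dissociation stress genes, the immediate-early and heat shock genes that tissue digestion is known to induce, were lower in iAdFASNKO progenitor-like cells. Of 21 measured, 16 were lower and 0 higher in Lin+, with a median log2 ratio of -0.64 against 0.13 over all genes. In Lin- 11 were lower and 0 higher, with a median of -0.61 against 0.04. Fos stood at 1021 CPM in iAdFASNKO Lin+ and 1567 CPM in control Lin+, and at 2423 CPM in iAdFASNKO Lin- and 4007 CPM in control Lin-. Junb had ratios of 0.529 and 0.631 in Lin+ and Lin-, Zfp36 of 0.505 and 0.572, and Hspb1 of 0.469 and 0.591. Beside the Mt1 values of these cells, the whole list summed to 10543 CPM in iAdFASNKO Lin+ and 16096 CPM in control Lin+, and to 19170 CPM in iAdFASNKO Lin- and 27628 CPM in control Lin-. Its part in the Mt1 and Mt2 difference was not tested.

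The other inducers gave mixed lists. Of 19 glucocorticoid-responsive genes, 2 were higher and 4 lower in Lin+, and 3 were higher and 3 lower in Lin-. Those past the ratio in both fractions ran in opposite directions. Zbtb16 stood at 347 CPM in iAdFASNKO Lin+ and 211 CPM in control Lin+, and at 274 CPM in iAdFASNKO Lin- and 142 CPM in control Lin-. Pdk4 was higher too, with ratios of 1.66 and 2.30. Sgk1, Cdkn1a and Hsd11b1, the enzyme that regenerates active glucocorticoid, were lower, with Hsd11b1 at 136 CPM in iAdFASNKO Lin+ and 217 CPM in control Lin+, and at 254 CPM in iAdFASNKO Lin- and 567 CPM in control Lin-.

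Of 15 acute phase genes, 1 was higher and 3 lower in Lin+, and 3 were higher and 5 lower in Lin-. Saa3, a serum amyloid, was higher in both fractions (ratios 2.37 and 3.66), while Socs3 (0.478 and 0.414) and Cebpb (0.630 and 0.451) were lower. Of the oxidative stress list, 2 of 16 were higher and 2 lower in Lin+, and 0 of 15 were higher and 1 lower in Lin-, with Osgin1 lower in both. Of 9 hypoxia genes, none passed in Lin+ and 1 was higher in Lin-. Each of these counts is to be read beside the shares of all genes given for the same cells.

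In endothelial-like cells, which line vessels and were marked by Pecam1, Cdh5 and Egfl7 among others, both members were higher in the iAdFASNKO libraries. Mt1 stood at 624 CPM in iAdFASNKO Lin+ (545 to 711, 66 cells) and 54.0 CPM in control Lin+ (26.9 to 96.5, 34 cells), a ratio of 11.6 (6.34 to 23.5). It stood at 212 CPM in iAdFASNKO Lin- (188 to 238, 225 cells) and 28.5 CPM in control Lin- (20.5 to 38.7, 117 cells), a ratio of 7.42 (5.33 to 10.6). Mt2 stood at 282 CPM in iAdFASNKO Lin+ and 24.5 CPM in control Lin+ (ratio 11.5, 4.76 to 36.1), and at 120 CPM in iAdFASNKO Lin- and 8.35 CPM in control Lin- (ratio 14.4, 8.02 to 28.5). In these cells 9.88% of 4877 genes were higher in Lin+ and 4.47% of 9208 in Lin-. In Lin+, 28 of the 4877 genes had a higher ratio than Mt1 and 30 a higher ratio than Mt2, and in Lin- 8 and 2 of the 9208 genes did.

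These cells lay in 2 clusters that the libraries held in unlike proportions. Cluster 12 carried Mmrn1 and Prox1, genes of lymphatic endothelium, and almost no Flt1. Cluster 19 was led by Cytl1 and carried Glycam1, Selp, Flt1 and Vwf, genes of blood vessels. Among all cells of cluster 19, Prox1 was found in 21.2% of iAdFASNKO Lin- and 36.4% of control Lin- cells. In Lin+ it was found in 1.69% of iAdFASNKO and 5.88% of control cells. Cluster 12 held 65.8% of iAdFASNKO Lin- and 91.5% of control Lin- endothelial-like cells. In Lin+ it held 21.2% of iAdFASNKO and 55.9% of control ones. In cluster 12 of Lin-, Mt1 stood at 19.4 CPM in iAdFASNKO (17 UMIs, 148 cells) and 24.7 CPM in control (31 UMIs, 107 cells), a ratio of 0.787 (0.409 to 1.47). In cluster 19 of Lin-, it stood at 587 CPM in iAdFASNKO (263 UMIs, 77 cells) and 55.0 CPM in control (10 UMIs, 10 cells), a ratio of 10.7 (5.72 to 22.5). In cluster 19 of Lin+, it stood at 672 CPM in iAdFASNKO (225 UMIs, 52 cells) and 87.1 CPM in control (8 UMIs, 15 cells), a ratio of 7.72 (3.85 to 18.1). The higher level was thus seen in the cluster with blood vessel genes, where the control libraries held 10 and 15 cells.

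Mt2 in cluster 19 had ratios of 8.70 in Lin- (4.12 to 22.02) and 5.60 in Lin+ (2.32 to 17.6). With the same cluster mix in both genotypes, the Mt1 ratio of endothelial-like cells was 7.14 in Lin+ and 4.71 in Lin-, and the Mt2 ratio was 5.60 and 7.12.

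A few cells carried most of these transcripts. In cluster 19, 13 of 77 iAdFASNKO Lin- cells had at least 5 Mt1 UMIs (16.9%, exact Clopper-Pearson interval 9.31% to 27.1%), against 0 of 10 control Lin- cells, which allows up to 30.8%. In Lin+, 10 of 52 iAdFASNKO cells did (19.2%, 9.63% to 32.5%), against 1 of 15 control cells (6.67%, 0.169% to 31.9%). The highest cell held 83 Mt1 UMIs in iAdFASNKO Lin- and 45 in iAdFASNKO Lin+, against 4 in control Lin- and 6 in control Lin+. Shared barcodes marked 2 of the 10 iAdFASNKO Lin+ cells, those with 45 and 31 Mt1 UMIs, and 0 of the 13 iAdFASNKO Lin- cells. Of the 13 and 10 iAdFASNKO cells, 12 and 10 also had Mt2, and each had at least 4 of the 8 endothelial markers.

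Carry-over of progenitor transcripts was gauged beside these values. For every 100 UMIs of Col1a1, Col3a1, Dcn and Gsn, Mt1 had 32.3 UMIs in iAdFASNKO Lin- endothelial-like cells and 3.55 in control Lin- ones, against 2.47 and 2.44 in the progenitor-like cells of the same libraries. Cells with no UMI of those 4 genes stood at 174 CPM of Mt1 in iAdFASNKO Lin- (126 to 235, 75 cells). The 9 such control Lin- cells had 0 Mt1 UMIs, with an upper Poisson bound of 278 CPM, so these cells cannot show a difference. In Lin+ such cells stood at 404 CPM in iAdFASNKO (194 to 743, 17 cells) and 117 CPM in control (2.97 to 654, 9 cells). These intervals overlapped too. The dissociation stress list summed to 18272 CPM in iAdFASNKO and 15948 CPM in control cells of cluster 19 in Lin-, and to 12181 and 11004 CPM in the same order in Lin+. Over all endothelial-like cells of Lin+, 8 of its 21 genes were higher and 0 lower, where 9.88% of all genes were higher. In Lin- 2 were higher and 1 lower, where 4.47% of all genes were higher. The part of this list in the difference was not tested.

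The size of the Mt1 ratio differed between settings. Thinned to 1000 UMIs, cluster 19 cells averaged 0.557 Mt1 UMIs in iAdFASNKO Lin- and 0.100 in control Lin-, and 0.467 in iAdFASNKO Lin+ and 0.250 in control Lin+. Over all endothelial-like cells the thinned log2 ratio of Mt1 was 1.36 in Lin+ and 1.501 in Lin-, in place of 3.53 and 2.89. Without cells of shared barcodes it was 2.33 in Lin+, where 13 control cells were left, and 2.89 in Lin-. Cluster 19 of Lin- without such cells stood at 631 CPM of Mt1 in iAdFASNKO (74 cells) and 109 CPM in control (8 cells), in place of 587 and 55.0 CPM. In Lin+ it stood at 568 CPM in iAdFASNKO (45 cells) and 111 CPM in control (11 cells), in place of 672 and 87.1 CPM. The thinning left out 17 of 66 iAdFASNKO and 16 of 34 control Lin+ cells, and the cause of the change was not tested. Mt2 had a thinned log2 ratio of 2.36 in Lin+ and 3.86 in Lin-, in place of 3.52 and 3.85. Without the highest cell of each library the Lin+ ratios were 21.4 for Mt1 and 22.8 for Mt2, and the Lin- ratios were 5.87 and 16.7.

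**Figure D4:**
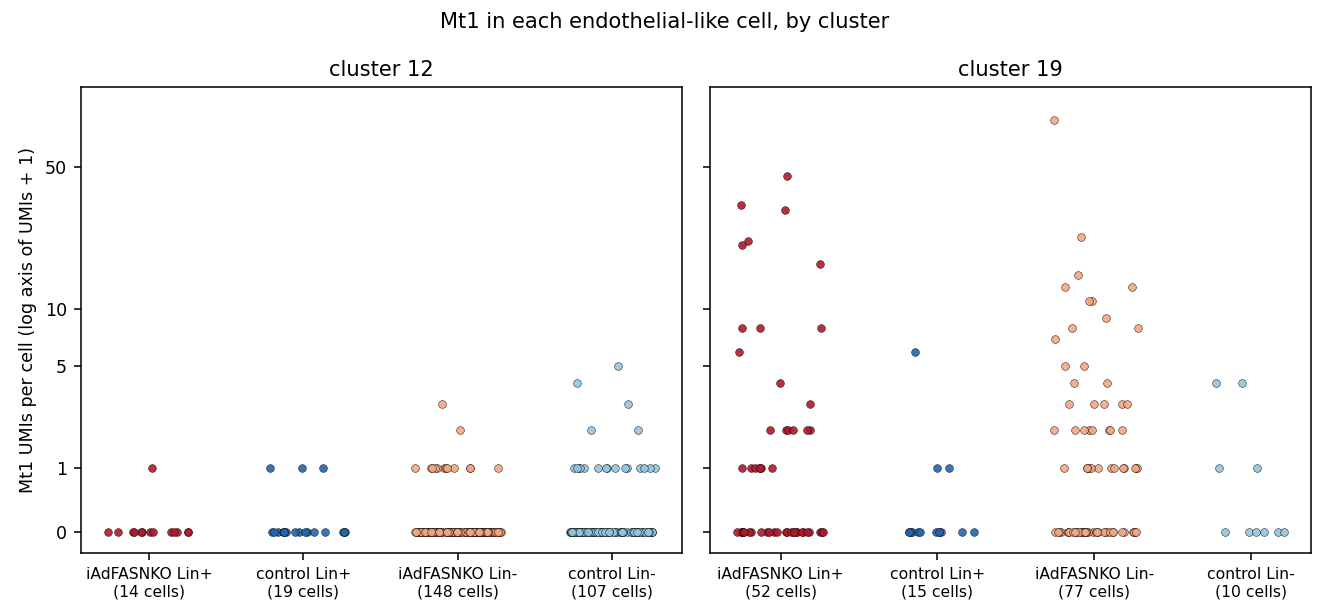
Mt1 UMIs in each endothelial-like cell (log axis of UMIs + 1) by library, in cluster 12 (left) and cluster 19 (right), with 1 point per cell and sideways jitter. In cluster 19, cells with 5 or more UMIs number 10 in iAdFASNKO Lin+, 1 in control Lin+, 13 in iAdFASNKO Lin- and 0 in control Lin-, and cluster 12 holds 1 in all.

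In Schwann-like cells both members were higher in iAdFASNKO Lin+, and in Lin- Mt2 passed the ratio of 1.5 while Mt1 did not. Mt1 had a ratio of 2.33 in Lin+ (1.85 to 2.93, 27 and 21 cells) and of 1.24 in Lin- (1.12 to 1.37, 207 and 83 cells). Mt2 had a ratio of 2.60 in Lin+ (1.68 to 4.10) and of 1.59 in Lin- (1.29 to 1.96). In these cells 6.21% of 1288 genes were higher in Lin+ and 3.38% of 4851 in Lin-. The Lin- ratio of Mt1 turned to a log2 value of -0.05 under the stricter cell filter, which left 61 iAdFASNKO and 37 control cells. Under that filter the Lin- log2 ratio of Mt2 was 0.12 (-0.30 to 0.54) in place of 0.67, and it no longer passed. Thinned, it was 0.999. Over the processing alternatives in Lin+, the log2 ratio of Mt1 (1.22) lay between 0.80 and 1.34, and that of Mt2 (1.38) between 0.59 and 1.51. In Lin+, cluster 17 held 22.2% of iAdFASNKO and 42.9% of control Schwann-like cells. Within cluster 14, led by Cldn19, the Mt1 ratio was 1.4998 in Lin+ (1.17 to 1.93, 19 and 12 cells). This was just under 1.5, so the Lin+ difference of Mt1 no longer counted there. In Lin- the Mt1 ratio was 1.27 (1.14 to 1.40, 174 and 70 cells). Mt2 in cluster 14 still counted, at 1.59 in Lin+ (1.01 to 2.57) and 1.66 in Lin- (1.34 to 2.07). The progenitor genes summed to 2609 and 3378 CPM in iAdFASNKO and control Lin+ Schwann-like cells, and to 2719 and 3246 CPM in iAdFASNKO and control Lin- ones, and the part of carried-over RNA was not tested.

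In macrophage-like cells, marked by C1qa, Adgre1 and Mrc1, Mt1 had a ratio of 1.59 (1.34 to 1.88) and Mt2 a ratio of 0.729 (0.472 to 1.10), with 62 iAdFASNKO and 131 control Lin+ cells. The Mt2 direction was not stable, with a log2 ratio of -0.46 as reported, 0.47 under the stricter cell filter and 1.204 thinned. Mt2 stood at 106 CPM in iAdFASNKO and 146 CPM in control cells, where 31.7% of the Mt2 UMIs came from 1 cell. Here 3.35% of 5943 genes were higher. Among the dissociation stress genes 12 of 21 were higher and 1 lower, and the list summed to 30100 CPM in iAdFASNKO and 18630 CPM in control cells, against 8.58% of all genes lower. The erythroid genes, a sign of carried-over RNA, summed to 31751 CPM in iAdFASNKO and 11565 CPM in control cells, and the part of either list was not tested. Within cluster 21, which held 71.0% of iAdFASNKO and 56.5% of control macrophage-like cells, the Mt1 ratio was 1.35 (1.13 to 1.63) and did not reach 1.5.

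Neutrophil-like cells had 310 CPM of Mt1 in iAdFASNKO Lin+ (56 cells) and 119 CPM in control Lin+ (38 cells), a ratio of 2.61 (1.32 to 5.73), where 12.4% of 1887 genes were higher. In iAdFASNKO 42.1% of these UMIs came from 1 cell, and the thinned log2 ratio was -1.42. The progenitor genes also were higher there, at 3142 CPM in iAdFASNKO and 1403 CPM in control cells, and their part was not tested. Mural-like cells of Lin- had ratios of 1.13 for Mt1 (1.04 to 1.24) and 1.47 for Mt2 (1.03 to 2.13), neither past 1.5. Monocyte-like cells had 136 CPM of Mt1 in iAdFASNKO Lin+ and 117 CPM in control Lin+, with an interval of the ratio that held 1. Its log2 value of 0.22 turned to -0.25 thinned. Dendritic-like cells had a ratio of 1.09 (0.810 to 1.46), a log2 value of 0.12, against 2.75 under the stricter gate, with 10 iAdFASNKO and 11 control cells, and -0.67 thinned.

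B cell-like and T cell-like cells of Lin+ had Mt1 ratios of 0.450 (0.288 to 0.719) and 0.337 (0.215 to 0.531), where 3.15% and 7.96% of genes were lower. Under the stricter cell filter the B cell-like log2 ratio turned to 0.70. T cell-like cells of Lin- had 106 CPM in iAdFASNKO (118 cells) and 39.5 CPM in control (41 cells), a ratio of 2.68 with an interval that held 1 (0.997 to 9.03), and 56.5% of the iAdFASNKO UMIs came from 1 cell. The progenitor genes, which these cells should lack, moved alike, at 555 CPM in iAdFASNKO and 1066 CPM in control B cell-like cells and at 406 CPM in iAdFASNKO and 723 CPM in control T cell-like cells. The share of Mt1 that came from carried-over RNA was not tested.

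The share of Mt2 in the summed UMIs of both members set the classes apart. UMIs of 3′ ends are not adjusted for capture of the different transcripts, so the share was compared between samples and not read as an order of the genes. In progenitor-like cells Mt2 made up 30.7% of the sum in iAdFASNKO Lin+ (29.9% to 31.6%) and 27.0% in control Lin+ (26.5% to 27.6%). It made up 17.6% in iAdFASNKO Lin- (17.1% to 18.2%) and 13.6% in control Lin- (13.2% to 13.9%). The share was thus higher in Lin+ than in Lin- for both genotypes, and the iAdFASNKO library had the higher share in both fractions, with intervals that did not overlap. Without the highest cell of each gene the shares were 30.7%, 26.7%, 17.5% and 13.5% in the same order.

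Interstitial progenitor-like cells had shares of 34.3% in iAdFASNKO Lin+ and 34.2% in control Lin+, with intervals that overlapped, and of 21.9% in iAdFASNKO Lin- and 19.4% in control Lin-, which overlapped too. Committed preadipocyte-like cells had 21.6% in iAdFASNKO Lin+ and 22.05% in control Lin+, and 16.4% in iAdFASNKO Lin- and 12.8% in control Lin-. CD142 stromal-like cells had 28.3% in iAdFASNKO Lin+ and 25.8% in control Lin+, and 22.9% in iAdFASNKO Lin- and 16.7% in control Lin-. Lin+ thus had the higher share in each subset and genotype. The genotypes' intervals overlapped in all 3 subsets of Lin+, and in Lin- they overlapped in the interstitial subset alone.

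Mural-like cells had the lowest shares among classes with at least 300 cells, 7.10% in iAdFASNKO Lin- (5.87% to 8.49%) and 5.56% in control Lin- (4.08% to 7.36%). Low shares were also seen in smaller classes. Monocyte-like cells had 5.88% in iAdFASNKO Lin+ (0.720% to 19.7%) and 2.94% in control Lin+ (0.0744% to 15.3%), on 2 and 1 Mt2 UMIs. Schwann-like cells lay between 17.6% and 22.9% in the 4 libraries. Macrophage-like cells had 11.7% in iAdFASNKO Lin+ (8.06% to 16.1%) and 22.3% in control Lin+ (18.6% to 26.4%), or 10.3% and 17.5% without the highest cells. Endothelial-like cells reached 36.2% in iAdFASNKO Lin- (31.7% to 40.9%) and 22.6% in control Lin- (12.3% to 36.2%).

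**Figure D5:**
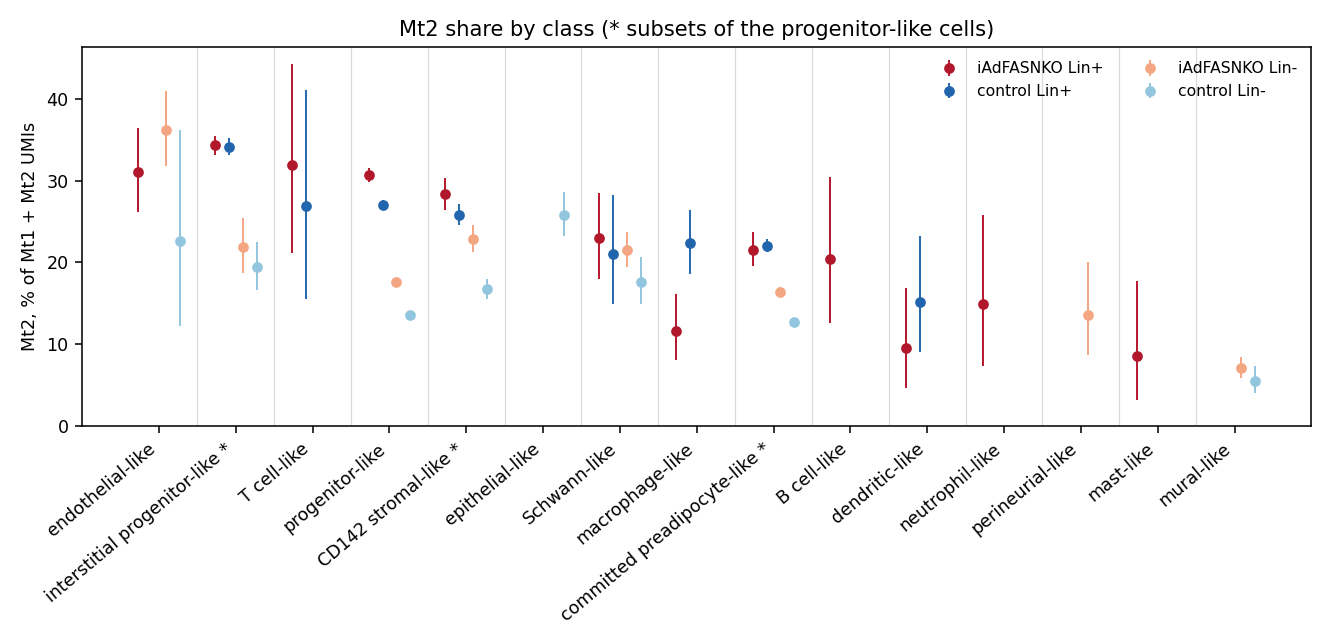
Mt2 as a percentage of the summed Mt1 and Mt2 UMIs, by class and library, for classes with at least 20 cells and 50 UMIs of both genes. Bars are exact 95% binomial intervals of counting error. Mural-like cells stand lowest at 7.10% and 5.56%, and in progenitor-like cells both Lin+ libraries lie above both Lin- libraries.

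Among 3327 other genes with a mean of at least 50 CPM, those whose log2 level over the 23 class and library sums was most like the summed level of Mt1 and Mt2 included Plin3 (Pearson r 0.86), Deptor (0.84), Anxa5 (0.83), Egr1 (0.82), Pmp22 (0.82), Lrp1 (0.81), Cyfip1 (0.80), Tmed10 (0.80) and Scarb2 (0.80). Plin3 coats lipid droplets. Deptor binds the mTOR kinase, Pmp22 is a protein of peripheral myelin, and Egr1 is an immediate-early transcription factor. The median over all genes compared was -0.01. Of these, Deptor, Pmp22, Cyfip1, Tmed10 and Scarb2 were highest in Schwann-like cells and Plin3, Anxa5, Egr1 and Lrp1 in progenitor-like cells, so the likeness follows the classes that lead the order of the members.

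Across progenitor-like cells of 1 library the genes were others. Among 2424 genes, those whose lowest correlation over the 4 libraries was highest were Fos (0.31), Egr1 (0.31), Junb (0.31), Zfp36 (0.29), Socs3 (0.27), Hspa8 (0.26), Atf3 (0.25), Cxcl1 (0.25), Fosb (0.24) and Btg2 (0.24). Of these 10, 8 belong to the dissociation stress list, Socs3 is a feedback inhibitor of cytokine signalling, and Cxcl1 is a neutrophil chemokine. These values describe cells that share a library and its depth, and no shared control is read from them. The share of mitochondrial UMIs, a sign of RNA quality, had a median in thinned progenitor-like cells of 1.82% in iAdFASNKO Lin+ and 3.45% in control Lin+, and of 1.40% in iAdFASNKO Lin- and 3.14% in control Lin-. Its correlation with the members' thinned sum was between -0.21 and -0.01 within a library.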

How the data were processed

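The authors deposited 1 matrix of raw UMI counts for each genotype, not normalized, per the file headers, whose barcode tag gives the fraction, per the labels. The genotype of a matrix was read from its name. Per the submitters' processing notes, the tools were Cell Ranger 3.1.0 and Seurat 3.0, and the build was mm10. A retained cell had 300 or more genes, 500 or more UMIs and a mitochondrial share of up to 10%, and Scrublet doublets (0.935% to 2.22% of a library) were removed, in scanpy 1.11.5. A cell took the class with the highest mean scaled marker level if it scored at least 0.15, led the next class by 0.05 and had UMIs of 2 markers. Clusters were made with leidenalg 0.10.2 at a resolution of 1, on 30 components without Mt1 and Mt2. Counts were summed over cells of a class and library and divided by the class total. Levels carry exact Poisson intervals, ratios exact conditional binomial intervals and shares Clopper-Pearson intervals (scipy 1.17.1). A count of 0 allows up to 3 counts, in CPM, or the Clopper-Pearson bound, for shares of cells. The ratio call was tested on simulated data. Named beside the members are the 10 genes most like them by each measure (1 of them is not reported here), list members past the ratio in both fractions in 1 direction, and Mtf1, Slc30a1, Slc39a10 and Slc39a14. Alternatives were other cell filters, no doublet removal, a stricter gate, cluster classes, edgeR 4.0.16 TMM scaling, means of scaled cells, thinning, and leaving out top cells. The members and lists were chosen with earlier results of these data known, and cluster-mix and shared-barcode alternatives after seeing the data.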

Additional observations from a re-analysis of the deposited data

Results flagged for a closer look

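Mt1 differed in opposite directions by genotype in 2 pairs of classes, in both fractions, each with an interval without 1. In endothelial-like cells the iAdFASNKO over control ratio was 11.6 in Lin+ and 7.42 in Lin-, against 0.523 and 0.759 in progenitor-like cells of the same libraries. In Schwann-like cells it was 2.33 in Lin+ and 1.24 in Lin-. In Lin- neither 1.24 nor 0.759 passed the ratio of 1.5 or 1/1.5. The Schwann-like value turned to a log2 ratio of -0.053 under the stricter cell filter, and the progenitor-like one was 0.924 with the same cluster mix. The difference between the classes was not tested, since each genotype and fraction had 1 library. Within cluster 12 of the endothelial-like cells the Lin- ratio was 0.787, and in cluster 19 it was 10.7 with 10 control cells.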

How the results depend on the processing

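Values here are log2 ratios, iAdFASNKO over control unless said otherwise, and the cause of a change was not tested. In Lin+ progenitor-like cells Mt1 stayed lower under every alternative, at -0.93 as reported, -1.06 with TMM scaling and -0.61 with the same cluster mix. Mt2 there was -0.68, against -0.80 with TMM scaling, -0.80 thinned and -0.56 with the same mix. In Lin-, Mt1 was -0.40, against -0.36 without shared barcodes, -0.44 with TMM scaling, -0.48 as a mean of scaled cells, -0.43 thinned and -0.11 with the same mix. Mt2 in Lin- was 0.05, with an interval holding no change, against -0.11 as a mean of scaled cells, -0.16 thinned and 0.23 with the same mix. Schwann-like over progenitor-like Mt1 in Lin- was 1.16 in iAdFASNKO (1.02 under the stricter cell filter, 0.67 with classes from clusters) and 0.46 in control (0.66 and -0.22). Oxidative stress genes higher in Lin+ numbered 0 in place of 2 at a minimum of 100 UMIs, and hypoxia genes higher in Lin- numbered 2 in place of 1 with no minimum. Signs turned under the stricter cell filter for Mt1 in B cell-like (0.70), ILC2-like (0.0076) and Schwann-like Lin- cells (-0.053) and for Mt2 in T cell-like Lin+ cells (0.51). They also turned for Mt1 in mural-like cells thinned (-0.215), and in neutrophil-like cells with classes from clusters (-3.86), as a mean of scaled cells (-0.73) and thinned (-1.42). Values whose interval held no change also turned. Mt2 in macrophage-like cells (-0.46) came to 0.47 under the stricter cell filter, 0.0051 as a mean of scaled cells and 1.204 thinned. Mt1 in T cell-like Lin- cells (1.42) came to -0.60 with classes from clusters, -0.15 as a mean of scaled cells and -0.50 thinned. Mt1 in dendritic-like cells (0.12) came to -0.27 without the top cells and -0.67 thinned, and in monocyte-like cells (0.22) to -0.23 as a mean of scaled cells and -0.25 thinned. Endothelial-like Mt1 stayed higher, between 1.36 and 4.42 in Lin+ and between 1.501 and 3.03 in Lin-, and macrophage-like Mt1 between 0.26 and 1.24. Depth limits the shares of positive cells, since the iAdFASNKO libraries were shallower, and classes under 100 cells rest on few UMIs. The stricter cell filter left too few Lin+ endothelial-like cells to give a value. No paired analysis was possible because each genotype and fraction had 1 library.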
